A study of Mus musculus with 8 samples.

Results

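The annexins are proteins that bind acidic phospholipids, phosphatidylserine above all, when calcium is present, and here the RNA of 8 of them (Anxa1, Anxa2, Anxa3, Anxa4, Anxa5, Anxa6, Anxa7 and Anxa11) was followed in bone marrow-derived macrophages (BMDMs) with and without gasdermin D. The 8 genes were taken by symbol from a table of 54532 genes, and all 8 were among the 12911 genes with enough counts to be tested. BMDMs were grown from marrow cells with macrophage colony-stimulating factor for 6 days and received no treatment, in 4 WT and 4 Gsdmd-/- libraries. According to the methods of the study, the marrow came from female C57BL/6J mice of 6 to 8 weeks, and the Gsdmd-/- mice were a gifted line kept in the animal facility of the authors' university. The allele and the strain background of that line are not given in the sources used here, nor do the labels tell if the 4 libraries of a genotype stand for 4 mice. The p-values therefore measure the spread between these libraries, which may be technical. The comparison asked which RNAs differ between resting macrophages with and without Gsdmd.

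Each annexin has a conserved core that docks on the membrane and an amino-terminal tail that differs between members and sets the binding partners. Calcium that enters through a wounded or permeabilized plasma membrane recruits annexins to the damaged site, where they take part in sealing it, and gasdermin D is the protein whose cleaved amino-terminal part forms pores in that membrane during pyroptosis. In macrophages annexins are also known for the control of inflammation, for phagocytosis and for traffic of vesicles.

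Total counts per library lay between 14935114 and 16794810, and the ranges of both genotypes overlapped. Gsdmd itself averaged 75.3 ± 14.1 CPM (counts scaled by TMM to a common library size; SD, n = 4) in WT against 16.2 ± 1.56 CPM in Gsdmd-/- libraries, so that 21.5% of the WT level remained, and no WT library overlapped with a Gsdmd-/- library (log2 fold change -2.22, SE 0.139, edgeR adjusted p = 4.665e-05). All 10 macrophage markers reached 3 counts. WT 2 and WT 3 stood apart from the other 6 libraries. On the first principal component, which held 43.6% of the variance, they were at 45.4 and 38.8 and the others between -25.9 and -7.19. The tested log2 fold changes of the annexins and of the list genes named below are therefore given with and without these libraries.

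The annexins together held between 0.525% and 0.745% of the counts of a library. Anxa1 alone made up 49.4% of the annexin counts in WT and 51.7% in Gsdmd-/- libraries. To compare levels between genes, CPM were divided by the length of all exons of the gene in kilobases. On this scale Anxa1 was highest with a level of 1050 ± 264 CPM per kb in WT (SD, n = 4), followed by Anxa5 with a level of 377 ± 58.4 and Anxa4 with a level of 221 ± 9.64 CPM per kb. Anxa2 had 205 ± 30.9 CPM per kb, and its range of 175 to 249 overlapped with the 213 to 234 of Anxa4. Anxa3 with 69.8 ± 12.4 and Anxa6 with 60.2 ± 2.30 CPM per kb overlapped as well, and Anxa7 with 32.1 ± 4.69 and Anxa11 with 10.9 ± 0.601 CPM per kb were lowest. The order was the same in Gsdmd-/- libraries, where Anxa1 had a level of 1233 ± 96.5 and Anxa11 of 10.1 ± 1.31 CPM per kb, and the ranges of Anxa4 and Anxa2 and those of Anxa3 and Anxa6 overlapped there too. All other neighbours in the order were apart in both genotypes on this scale. These levels depend on the length used. With the longest transcript in place of all exons, Anxa4 (392 CPM per kb in WT), Anxa5 (387) and Anxa2 (336) overlapped in WT with Anxa4 first, Anxa3 (159) was apart from Anxa6 (70.9), and Anxa6 overlapped with Anxa7 (66.2).

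**Figure D1:**
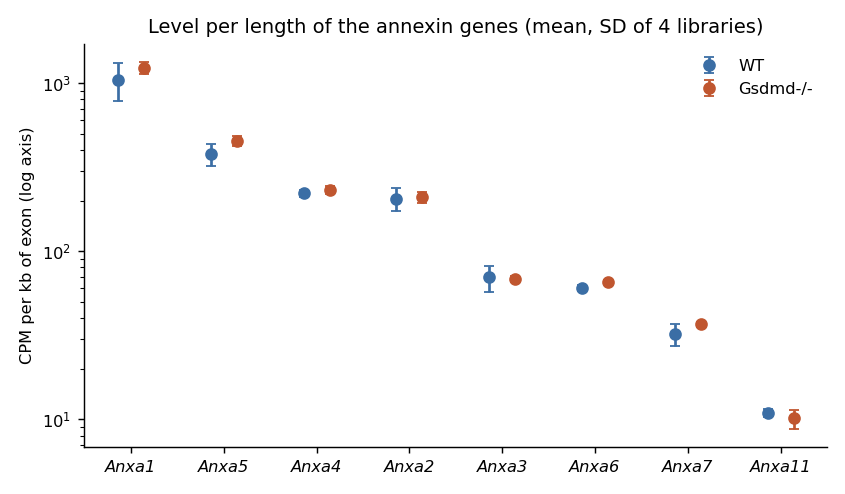
Level of the 8 annexins in CPM per kilobase of exon (log axis) in WT (blue) and Gsdmd-/- (orange) libraries. Points are means and bars the SD of 4 libraries. Anxa1 lies above all others, Anxa4 and Anxa2 lie close together, as do Anxa3 and Anxa6, and Anxa11 is lowest.

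None of the 8 annexins passed the adjusted test between the genotypes. Of all 12911 genes, 0.349% had an adjusted p under 0.05 (18 higher and 27 lower in Gsdmd-/- libraries), and the count of annexins was 0 by edgeR, by limma voom and by DESeq2. The count was also 0 for an unadjusted p under 0.05 combined with a log2 fold change of 0.5 or more in either direction, which 4.83% of all genes met. At an unadjusted p under 0.05 alone, each of the 3 tools counted 1 annexin, Anxa5, and this was met by 12.0% of all genes in edgeR, 11.5% in limma voom and 12.2% in DESeq2. The ranges of both genotypes did not overlap for 1 annexin, Anxa6, and for 7.60% of all genes. In 6 of the 8 members the log2 fold change was above 0, beside 6258 above and 6653 below of the 12911 genes tested. The members had a median of 0.09 and a range from -0.11 to 0.26, and the median of all genes tested was -0.01. The log2 fold change was above 0 in 5 of 8 members without WT 2 and WT 3, with a median of 0.04. In bulk RNA, fewer cells of a type and less RNA per cell cannot be told apart.

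Anxa1, which is induced by glucocorticoids and limits inflammation through formyl peptide receptors on leukocytes, lies at chr19:20373428-20390944 on the minus strand (GRCm38, GENCODE M21). Its CPM were 3286, 2347, 2556 and 4038 in WT 1 to WT 4 and 3562, 3414, 3994 and 3384 in the Gsdmd-/- libraries. WT 4 was the highest of all, WT 2 and WT 3 were the lowest, and the Gsdmd-/- libraries lay within the span of the WT. The means were 3057 ± 768 and 3589 ± 281 CPM (SD, n = 4), a fold of 1.17 with a 95% interval of 0.916 to 1.504 (log2 fold change 0.23, SE 0.161, edgeR adjusted p = 0.616). The log2 fold change without WT 2 and WT 3 was -0.03 (SE 0.109, edgeR adjusted p = 0.952), in the other direction.

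Anxa2 forms a complex with S100a10 that links membranes to actin and gathers plasminogen at the cell surface, and it lies at chr9:69453620-69491795 on the plus strand. It had 751, 654, 733 and 928 CPM in WT and 789.6, 729, 859 and 744 CPM in Gsdmd-/- libraries. Both the lowest and the highest value were in WT, and the ranges overlapped. With means of 766 ± 115 and 780.3 ± 58.2 CPM, the fold was 1.02 (95% interval 0.854 to 1.21, log2 fold change 0.03, SE 0.114, edgeR adjusted p = 0.952). Without WT 2 and WT 3 it was -0.11 on the log2 scale (SE 0.110, edgeR adjusted p = 0.780). Leaving out WT 2 alone (-0.05) or Gsdmd-/- 3 alone (-0.02) also turned the direction of its log2 fold change.

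Anxa5, which coats exposed phosphatidylserine with a lattice and serves as the common probe for dying cells, lies at chr3:36448923-36475894 on the minus strand. Its CPM were 675, 579.7, 614 and 815 in WT and 795, 776, 884 and 758 in Gsdmd-/- libraries. WT 1, WT 2 and WT 3 were below every Gsdmd-/- value, and WT 4 lay among them. The means were 671 ± 104 and 803 ± 56.0 CPM, a fold of 1.20 with a 95% interval of 1.00 to 1.43 and the largest log2 fold change of the 8 members (0.26, SE 0.115). Its unadjusted p in edgeR was 0.0458 and the adjusted p 0.400. Without WT 2 and WT 3 the log2 fold change was 0.11 (SE 0.106, unadjusted p = 0.332, edgeR adjusted p = 0.761), and without WT 4 it was 0.37 (edgeR adjusted p = 0.0920).

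Anxa4, an annexin of the plasma membrane and of secretory membranes, lies at chr6:86736840-86793584 on the minus strand. It had 998, 990.1, 1031 and 1089 CPM in WT and 1039, 1017, 1152 and 1092 CPM in Gsdmd-/- libraries, and the ranges overlapped. The means of 1027 ± 44.8 and 1075 ± 60.2 CPM gave a fold of 1.05 (95% interval 0.925 to 1.18, log2 fold change 0.07, SE 0.0802, edgeR adjusted p = 0.788). Leaving out WT 2 and WT 3 gave a log2 fold change of 0.04 (SE 0.0899, edgeR adjusted p = 0.913).

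Anxa6 is the annexin that carries the core in duplicate, acts on endosomes and cholesterol traffic and lies at chr11:54979108-55033445 on the minus strand. Its CPM were 173, 169, 180.2 and 184 in WT and 195, 197, 187 and 186 in Gsdmd-/- libraries. All Gsdmd-/- values were above all WT values, by a narrow margin between WT 4 and Gsdmd-/- 4. The means of 176 ± 6.73 and 191 ± 5.44 CPM gave a fold of 1.08 (95% interval 0.973 to 1.21, log2 fold change 0.12, SE 0.0706, edgeR adjusted p = 0.563). Its log2 fold change without WT 2 and WT 3 was 0.10 (SE 0.0855, edgeR adjusted p = 0.721).

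Anxa7, first known as synexin for its fusion of secretory granules, lies at chr14:20455260-20480133 on the minus strand. It had 203, 168, 171 and 227 CPM in WT and 213, 215, 232 and 219.5 CPM in Gsdmd-/- libraries. WT 2 and WT 3 were lowest, and WT 4 lay among the Gsdmd-/- values. With means of 192 ± 28.1 and 219.9 ± 8.48 CPM the fold was 1.14 (95% interval 0.972 to 1.34, log2 fold change 0.19, SE 0.105, edgeR adjusted p = 0.520). When WT 2 and WT 3 were left out, the log2 fold change was 0.03 (SE 0.0900, edgeR adjusted p = 0.940).

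Anxa3, an annexin best known from neutrophils, and Anxa11, whose long tail binds Pdcd6 and S100a6 and which tethers RNA granules to lysosomes, were the members with a log2 fold change below 0. Anxa3 (chr5:96793339-96845966, plus strand) had 207, 279.9, 304 and 227 CPM in WT and 248, 244, 261 and 239 CPM in Gsdmd-/- libraries. The Gsdmd-/- libraries lay between the pair WT 1 and WT 4 below them and the pair WT 2 and WT 3 above them. The means were 254 ± 45.2 and 248 ± 9.52 CPM, a fold of 0.977 (95% interval 0.811 to 1.18, log2 fold change -0.03, SE 0.121, edgeR adjusted p = 0.940). Without WT 2 and WT 3 the log2 fold change was 0.19 (SE 0.0888, edgeR adjusted p = 0.395). Leaving out WT 2 alone (0.01) or WT 3 alone (0.06) turned the direction as well.

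Anxa11 (chr14:25842156-25886804, plus strand) had 41.9, 47.9, 45.4 and 45.5 CPM in WT and 35.4, 40.5, 42.9 and 48.5 CPM in Gsdmd-/- libraries, and both the lowest and the highest value were in Gsdmd-/- libraries. The means of 45.2 ± 2.48 and 41.8 ± 5.42 CPM gave a fold of 0.926 (95% interval 0.789 to 1.09, log2 fold change -0.11, SE 0.104, edgeR adjusted p = 0.723). The log2 fold change was -0.07 without WT 2 and WT 3 (SE 0.126, edgeR adjusted p = 0.896). Reads of Anxa11 may be split with the pseudogene Gm2260 on the same chromosome, whose annotated transcript of 657 bases matched the transcripts of Anxa11 at 100% over its whole length. Gm2260 had 22, 289, 15 and 15 counts in WT and 18, 42, 34 and 11 counts in Gsdmd-/- libraries, and WT 2 was far above the rest. The sum of both genes was 50.4 ± 10.2 CPM in WT and 43.4 ± 5.31 CPM in Gsdmd-/- libraries (exact two-sided permutation p = 0.314). The level of Anxa11 is uncertain to this extent. Genes that overlap the other annexins or lie antisense to them held at most 0.101% of the counts of the annexin, and the antisense gene of Anxa11 held 0.283%.

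**Figure D2:**
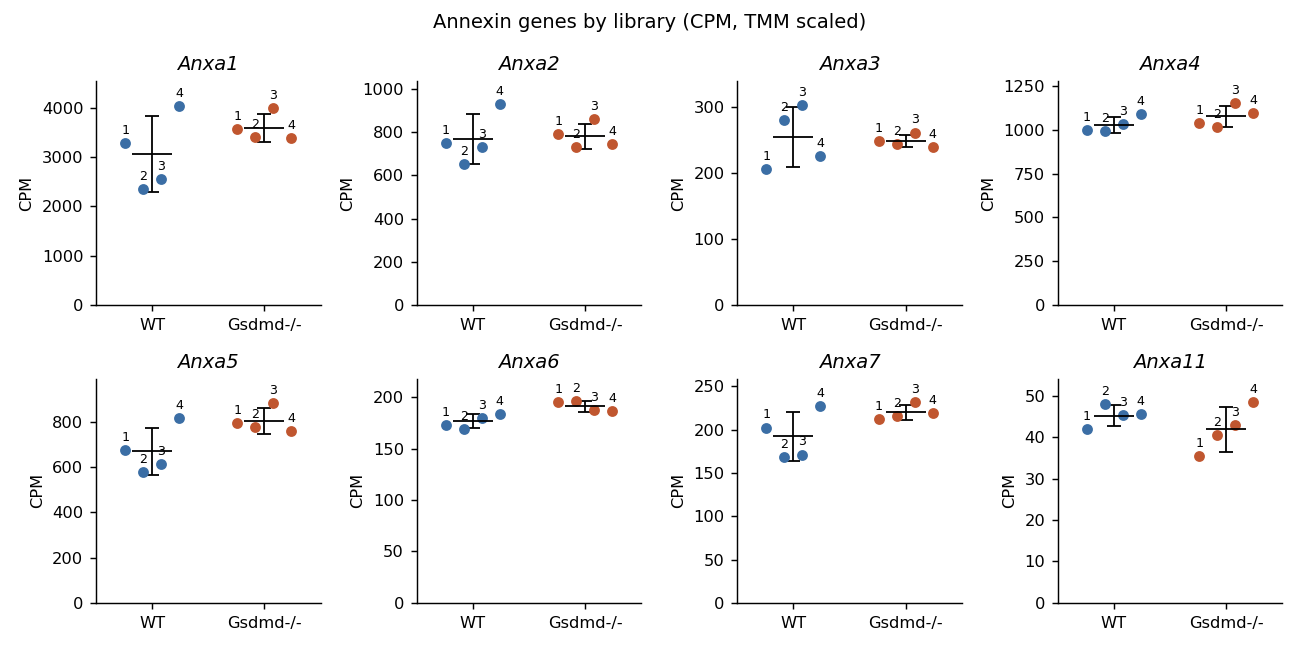
CPM of each of the 8 annexins in the 4 WT and 4 Gsdmd-/- libraries, each gene on its own axis. Points are libraries with their numbers, and lines show the mean with the SD. The genotypes overlap for all genes but Anxa6, and WT 2 and WT 3 are the lowest points for Anxa1, Anxa5 and Anxa7 and the highest for Anxa3.

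**Figure D3:**
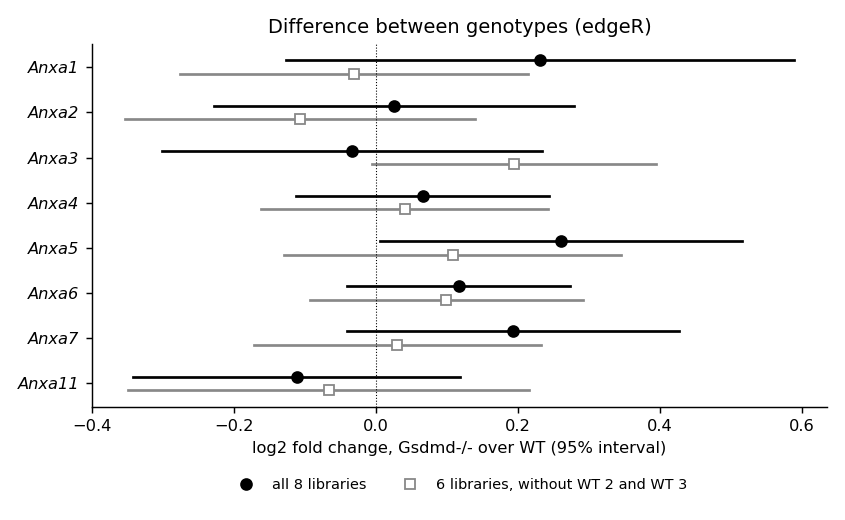
Log2 fold change (Gsdmd-/- against WT) of the 8 annexins with 95% intervals from edgeR, with all 8 libraries and without WT 2 and WT 3. All estimates from the 8 libraries lie between -0.11 and 0.26, and only the interval of Anxa5 lies above 0 (0.01 to 0.52).

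The place of WT 2 and WT 3 differed from one annexin to the next. WT 2 and WT 3 were both below all other 6 libraries for Anxa1, Anxa5 and Anxa7 and both above them for Anxa3. Of all genes tested, 17.5% had these libraries below the other 6 and 17.9% above. For Anxa1 the difference to the mean of the other 6 on the log2 scale was -0.62 in WT 2 and -0.49 in WT 3, for Anxa5 -0.43 and -0.35, and for Anxa7 -0.37 and -0.35. For Anxa3 it was 0.24 and 0.36. Anxa1 thus had a mean of 2452 CPM in WT 2 and WT 3, against 3662 CPM in WT 1 and WT 4 and 3384 to 3994 CPM in the Gsdmd-/- libraries. For Anxa3 the same means were 292 and 217 CPM, and the Gsdmd-/- libraries between 239 and 261 CPM. Anxa2, Anxa4, Anxa6 and Anxa11 had at least one of WT 2 and WT 3 within the range of the others. The coefficient of variation was larger in WT than in Gsdmd-/- libraries for 6 of the 8 members, for instance 25.1% against 7.83% for Anxa1 and 17.8% against 3.83% for Anxa3. It was larger in WT for 74.6% of 8224 genes with a mean of at least 10 CPM, with a median of 13.0% in WT and 8.51% in Gsdmd-/- libraries.

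**Figure D4:**
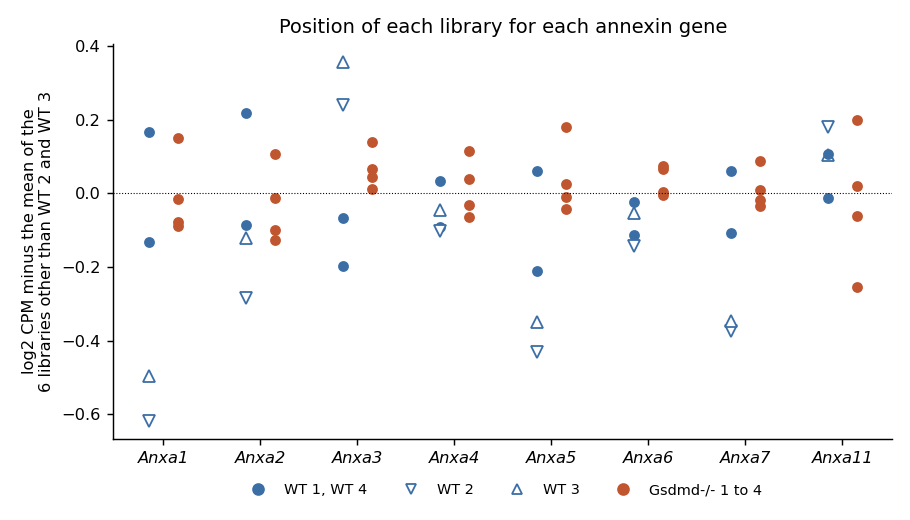
Log2 CPM of each annexin in each of the 8 libraries relative to the mean of WT 1, WT 4 and the 4 Gsdmd-/- libraries. WT 2 and WT 3 lie below the other 6 for Anxa1, Anxa5 and Anxa7, above them for Anxa3, and within them or on one side only for the rest.

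The summed levels of several marker lists moved with WT 2 and WT 3, most of them through 1 or a few genes. The summed level of the monocyte markers, of which 4 of 5 reached 3 counts in a library, was 5.01 and 4.09 CPM in these libraries, 47.8 and 45.0 CPM in WT 1 and WT 4, and 20.6 to 27.2 CPM in Gsdmd-/- libraries, and the largest gap was that of Ly6c2 (1.53 and 0.43 CPM in WT 2 and WT 3, against 15.4 to 35.5 CPM in the other 6). The mast cell and basophil markers, with 4 of 6 at 3 counts or more in a library, summed to 16.1 and 17.0 CPM, against 81.3 and 69.7 CPM in the other WT and 54.4 to 76.7 CPM in Gsdmd-/- libraries, mostly from Kit (11.4 and 10.3 CPM in WT 2 and WT 3). The dendritic cell list, with 5 of 7 that high, summed to 52.4 and 48.6 CPM against 16.8 to 22.6 CPM in the other 6, but this was Clec9a alone (49.1 and 45.3 CPM), while Zbtb46, Ccr7 and Cd209a were not above the other libraries, Flt3 was at 0 in WT 2 and WT 3 and Siglech at 0 throughout. The endothelial list, with 4 of 6 that high, summed to 246 and 210 CPM against 87.5 to 134.5 CPM, mostly from Vwf (238 and 201 CPM), with Tek at 0. The macrophage markers themselves summed to 16296 and 18121 CPM in WT 2 and WT 3 and to between 20156 and 24133 CPM in the other 6, mostly from Lyz2 (12999 and 14831 CPM). Lyz2, Cd68, Itgam and Fcgr1 were lower in WT 2 and WT 3 than in all other libraries, and Adgre1, Mrc1 and Mertk were higher. By edgeR 0 of these 10 markers passed the adjusted test between the genotypes, with 2 at an unadjusted p under 0.05, both lower in Gsdmd-/- libraries, beside 12.0% of all genes. Neutrophil markers were low at 5.36 to 7.94 CPM in all 8 libraries, with 5 of 10 at 3 counts or more in a library, Ly6g and Retnlg at 0 and S100a8 as most of the sum. The part of these cells in the levels of the annexins was not tested.

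The promoters of Anxa1, Anxa5, Anxa7 and Anxa2 are shown because these genes made up the 4 pairs of members with a Pearson r over 0.8 across the 8 libraries, given after them. Promoters were taken from a table made from RefSeq (GRCm38.p6), in which 6 of the 8 members were matched. The 100 bases before the RefSeq start are given 5′ to 3′ on the strand of the gene, with matches to TATAAA (the TATA box), TGAGTCA (the AP-1 motif), CCAAT and GGGCGG (the GC box) on either strand in capitals. They are Anxa1 at chr19:20390672-20390771 (minus strand), Anxa5 at chr3:36475888-36475987 (minus strand), Anxa7 at chr14:20480134-20480233 (minus strand, the upstream one of its pair of starts) and Anxa2 at chr9:69453583-69453682 (plus strand). The RefSeq start lies 273 bases downstream of the GENCODE start for Anxa1, 63 bases for Anxa2 and 7 bases for Anxa5, so the whole window of Anxa1 and most of that of Anxa2 lie inside the gene as GENCODE draws it. Positions count from the RefSeq start.
Anxa1: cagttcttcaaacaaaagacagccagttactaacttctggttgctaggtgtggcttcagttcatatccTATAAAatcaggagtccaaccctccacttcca
Anxa5: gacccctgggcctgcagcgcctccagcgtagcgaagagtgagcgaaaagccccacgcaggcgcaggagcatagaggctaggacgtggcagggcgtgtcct
Anxa7: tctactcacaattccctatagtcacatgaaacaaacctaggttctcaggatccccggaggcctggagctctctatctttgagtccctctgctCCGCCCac
Anxa2: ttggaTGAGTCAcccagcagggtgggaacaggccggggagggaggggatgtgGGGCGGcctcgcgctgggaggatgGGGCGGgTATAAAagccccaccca
Within 250 bases before the start, the promoter of Anxa1 held TATAAA with its first base at position -32 and no other of the 4 motifs. That of Anxa2 held TATAAA at -17, TGAGTCA at -95 and GGGCGG at -190, -48 and -24. The promoter of Anxa5 held none of them, and those of Anxa7 and Anxa11 held only GGGCGG. Among 32851 promoters of the mouse, 12.4% held TATAAA, 4.46% TGAGTCA, 33.8% CCAAT and 32.7% GGGCGG. Of the genes shown, Anxa1 and Anxa2 both held TATAAA and Anxa2 and Anxa7 both held GGGCGG, and a match or its lack describes the letters only.

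Across the 8 libraries, the log2 CPM of Anxa1 and Anxa7 had a Pearson r of 0.978, those of Anxa5 and Anxa7 of 0.962 and those of Anxa1 and Anxa5 of 0.957, and Anxa1 and Anxa2 were at 0.858. Anxa1 and Anxa3 were opposite, with an r of -0.619. Without WT 2 and WT 3 the first 3 values were 0.861, 0.908 and 0.838 over 6 libraries, whereas Anxa1 and Anxa3 had 0.408. The pair of Anxa1 and Anxa2 was at 0.948 there, the highest of the 28 pairs, and Anxa4 and Anxa7 at 0.918 (0.704 over 8 libraries), so that the order of the pairs rests on WT 2 and WT 3. The points share their library, its depth and its makeup of cells, so these values describe the libraries. Among the 8224 genes with a mean of at least 10 CPM, the most like in pattern was Atg3 for Anxa1 (r 0.998 over 8 and 0.992 over 6 libraries), Cct5 for Anxa2 (0.994 and 0.994), Cyp4f13 for Anxa3 (0.986 and 0.966) and Wdr1 for Anxa4 (0.981 and 0.980). For Anxa5 it was Sumo3 (r 0.993 over 8 and 0.977 over 6 libraries), for Anxa6 Tspan4 (0.940 and 0.905), for Anxa7 Tpm4 (0.995 and 0.963) and for Anxa11 D17H6S53E (0.925 and 0.975). After these came Bhlhe41 and Npm1 for Anxa1, Cct2 and Cfdp1 for Anxa2, Itm2b and Ctsl for Anxa3, Tmed2 and Chchd2 for Anxa4, Gcsh and Tmem251 for Anxa5, Il10rb and Zranb1 for Anxa6, Cdc42 and Lat2 for Anxa7 and Pabpc1 and Rnf10 for Anxa11.

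Of the 4 other annexins in the table, Anxa9 was the only one tested, with 229 counts over the WT and 236 over the Gsdmd-/- libraries, or 3.49 ± 0.451 and 3.65 ± 0.709 CPM (log2 fold change 0.07, edgeR adjusted p = 0.927, and 0.02 without WT 2 and WT 3). Over all libraries of a genotype, Anxa8 summed to 4 counts in WT against 1 without Gsdmd, and Anxa13 to 3 against 6. Anxa10 had 0 counts in all libraries, which allows up to 3 counts or 0.177 to 0.199 CPM per library.

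Among 16 binding partners and receptors of annexins, 12 were tested. By edgeR, limma voom and DESeq2 alike, 0 passed the adjusted test and 1 had an unadjusted p under 0.05, beside 12.0%, 11.5% and 12.2% of all genes. Of the 12, 7 had a log2 fold change above 0 (6258 of 12911 over all genes), with a median of 0.07. Without WT 2 and WT 3 this was 4 of 12 with a median of -0.03. In that fit 0 passed the adjusted test of edgeR and 1 had an unadjusted p under 0.05, beside 1.21% and 13.1% of all genes. S100a10, the partner of Anxa2, had 262, 182, 226 and 353 CPM in WT and 287, 245, 341 and 269 CPM in Gsdmd-/- libraries (log2 fold change 0.16, SE 0.186, edgeR adjusted p = 0.779). It was lowest in WT 2 and WT 3 and highest in WT 4, with WT 1 among the Gsdmd-/- values, and without WT 2 and WT 3 its log2 fold change turned to -0.11. Per count of Anxa2 there were 0.329 ± 0.0453 counts of S100a10 in WT, against 0.365 ± 0.0251 without Gsdmd (SD, n = 4, exact two-sided permutation p = 0.229). This ratio was lowest in WT 2 and WT 3 (0.278 and 0.309). WT 1 and WT 4 (0.349 and 0.381) lay within the Gsdmd-/- range of 0.336 to 0.398.

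S100a6, a calcium-binding partner of Anxa11, had 307, 199, 218 and 429 CPM in WT and 352, 319, 447 and 332 CPM in Gsdmd-/- libraries. WT 2 and WT 3 were again lowest. Its log2 fold change of 0.33 (SE 0.224, edgeR adjusted p = 0.603) was -0.02 without them. S100a11, the partner of Anxa1, averaged 457 ± 52.9 CPM in WT against 445 ± 42.7 CPM without Gsdmd (log2 fold change -0.04, edgeR adjusted p = 0.920), and its log2 fold change turned to 0.03 without WT 2 and WT 3. S100a4 was low, between 1.77 and 2.86 CPM in WT and between 2.61 and 4.69 CPM in Gsdmd-/- libraries (log2 fold change 0.53, SE 0.255, edgeR adjusted p = 0.449, and 0.38 without WT 2 and WT 3).

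Fpr2, the receptor for annexin A1, was too low to be tested, with 7, 10, 16 and 18 counts in WT and 5, 2, 8 and 0 counts in Gsdmd-/- libraries. The ranges overlapped between the lowest WT and the highest Gsdmd-/- library, and an exact two-sided permutation test of the CPM gave p = 0.0571. It overlaps Fpr3, which had 0 counts, and Fpr1 summed to 7 counts over the WT and 3 over the Gsdmd-/- libraries. Pdcd6, the calcium sensor that binds Anxa7 and Anxa11, was at 86.3 ± 7.28 and 90.3 ± 8.91 CPM (log2 fold change 0.07, edgeR adjusted p = 0.833). Sri, or sorcin, which binds Anxa7, was at 109 ± 17.9 and 114 ± 6.57 CPM (log2 fold change 0.07, edgeR adjusted p = 0.858). Lgals3, the galectin that binds Anxa7, was at 6322 ± 892 and 7036 ± 797 CPM (log2 fold change 0.15, edgeR adjusted p = 0.677). Sri and Lgals3 were lower in WT 2 and WT 3 than in the other 6 libraries. Leaving out WT 2 and WT 3 gave a log2 fold change of -0.07 for Sri, 0.0073 for Lgals3 and -8.656e-04 for Pdcd6.

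The partner with an unadjusted p under 0.05 was Pla2g4a, the cytosolic phospholipase A2 that annexins restrain, which was named after its values were seen. It had 46.3, 58.2, 56.8 and 51.5 CPM in WT and 46.8, 41.2, 46.3 and 45.2 CPM in Gsdmd-/- libraries (log2 fold change -0.25, SE 0.0941, edgeR unadjusted p = 0.0255 and adjusted p = 0.344). WT 2 and WT 3 were highest, and WT 1 lay among the Gsdmd-/- values. Without WT 2 and WT 3 its log2 fold change was -0.13 (edgeR adjusted p = 0.680).

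**Figure D5:**
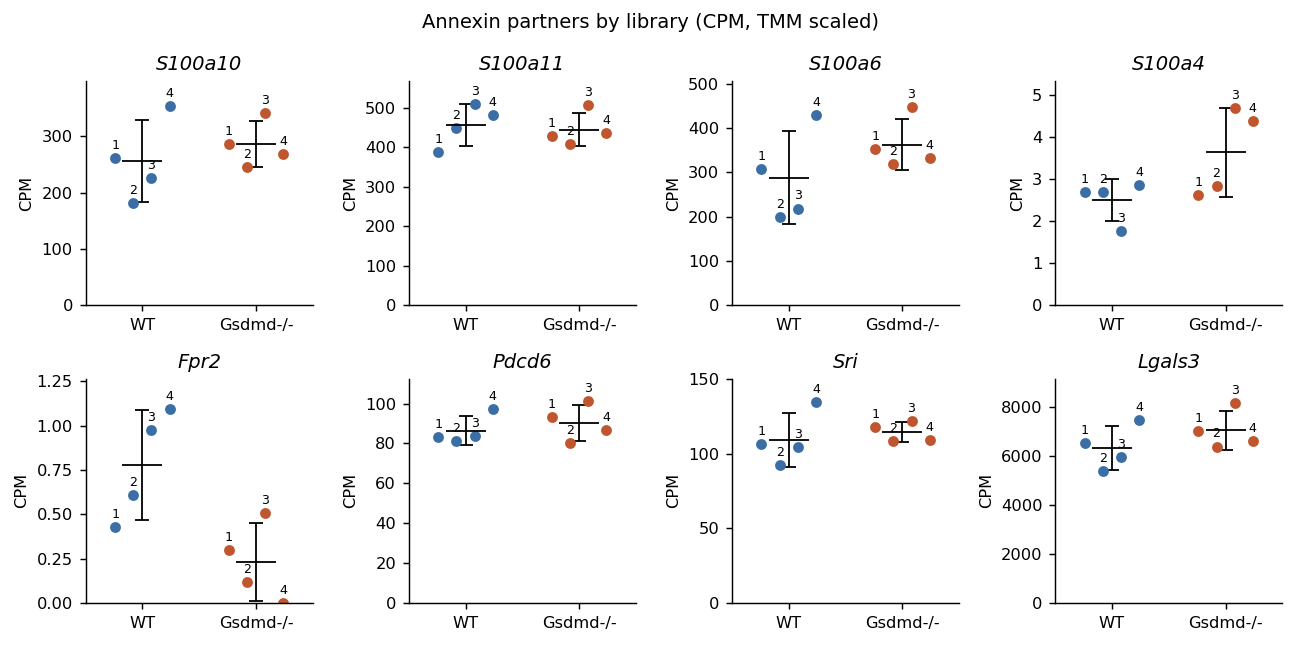
CPM of partners of annexins in the 4 WT and 4 Gsdmd-/- libraries, each gene on its own axis. Points are libraries with their numbers, and lines show the mean with the SD. The genotypes overlap for every gene drawn.

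The lipid that annexins bind is brought to the cell surface by scramblases and taken back by flippases. Of 16 such genes, 12 were tested. At an unadjusted p under 0.05 there were 0 in edgeR, 0 in limma voom and 1 in DESeq2, beside 12.0%, 11.5% and 12.2% of all genes. None passed the adjusted test in these tools, beside 0.349%, 0.333% and 2.26%. Of the 12, 3 were above 0 and 9 below, with a median log2 fold change of -0.02. Without WT 2 and WT 3 the count was 7 above and 5 below, and 1 gene, the flippase Atp8b4, passed the adjusted test as lower in Gsdmd-/- libraries (log2 fold change -0.65, SE 0.127, edgeR adjusted p = 0.0469), beside 1.21% of all genes in that fit, and 2 of 12 had an unadjusted p under 0.05, beside 13.1%. With all 8 libraries its log2 fold change was -0.03 (SE 0.383, edgeR adjusted p = 0.986) and the ranges overlapped, and it was named after its values were seen. Of 17 receptors and bridging proteins for exposed phosphatidylserine, 15 were tested, and 1 had an unadjusted p under 0.05 in edgeR and in limma voom, against 3 in DESeq2 (Itgb3, Mertk and Itgav) and shares of all genes of 12.0%, 11.5% and 12.2%. The 1 common to the tools was Itgb3, the integrin subunit that takes up apoptotic cells together with Itgav, with 106.9 ± 31.5 CPM in WT and 180.0 ± 20.5 CPM in Gsdmd-/- libraries. Its genotypes did not overlap (log2 fold change 0.75, SE 0.194, edgeR adjusted p = 0.174). It passed the adjusted test in DESeq2, as did 2.26% of all genes. In edgeR without WT 2 and WT 3 it also passed (log2 fold change 1.13, adjusted p = 0.0121), beside 1.21% of all genes. Of the WT, that fit keeps only WT 1 and WT 4, where Itgb3 was lowest (95.8 and 68.1 CPM, against 138.9 and 124.9 CPM in WT 2 and WT 3). Over the whole list, 11 of 15 genes were below 0 (6653 of 12911 over all genes) with a median log2 fold change of -0.24, and none of these 11 passed in edgeR. When WT 2 and WT 3 were left out, 6 of 15 were below 0, the median was 0.04 and 4 had an unadjusted p under 0.05, beside 13.1% of all genes. Mertk, a receptor for bridged phosphatidylserine, had 250 and 212 CPM in WT 2 and WT 3, 141 and 101 CPM in WT 1 and WT 4, and 103 to 142 CPM in Gsdmd-/- libraries, and its log2 fold change was -0.48 (edgeR adjusted p = 0.483) with all 8 libraries and 0.05 without those libraries. Itgav had a log2 fold change of -0.47 (edgeR adjusted p = 0.428) with all 8 and -0.01 without them. Axl, a receptor of the same family, was the other of 2 genes past the adjusted test without these libraries, beside 1.21% of all genes (log2 fold change -0.73, SE 0.139, edgeR adjusted p = 0.0427), against -0.27 (adjusted p = 0.741) with all 8. Mertk, Itgav and Axl were named after their values were seen.

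Of 18 genes for membrane repair, annexins and the ESCRT machinery left out, 12 were tested, with 5 above 0, 7 below and a median log2 fold change of -0.08, and 6, 6 and 0.0030 without WT 2 and WT 3. None passed the adjusted test in edgeR or limma voom, and 1, Trim72, did in DESeq2, where 2.26% of all genes passed. At an unadjusted p under 0.05 there were 2, 3 and 3 genes in edgeR, limma voom and DESeq2, beside 12.0%, 11.5% and 12.2% of all genes, and 5 in edgeR without WT 2 and WT 3, beside 13.1%. Trim72, which gathers repair vesicles in muscle, had 11, 25, 31 and 11 counts in WT and 7, 5, 3 and 4 counts in Gsdmd-/- libraries (log2 fold change -1.99, SE 0.472, edgeR adjusted p = 0.125). The genotypes did not overlap, but WT 2 and WT 3 were far above the other WT, and without them its log2 fold change was -1.17 (edgeR adjusted p = 0.313). An antisense gene overlaps it, and the kit does not mark strand. Ehd1, an ATPase that shapes recycling endosomes, had 106.7, 103, 104 and 142 CPM in WT and 82.0, 80.6, 105 and 94.9 CPM in Gsdmd-/- libraries (log2 fold change -0.33, SE 0.128, edgeR adjusted p = 0.349), and only Gsdmd-/- 3 lay among the WT values. Its log2 fold change without WT 2 and WT 3 was -0.46 (edgeR adjusted p = 0.183). Of the copines, another family that binds phospholipids with calcium, 3 of 9 were tested, with log2 fold changes of 0.05 to 0.14. None had an unadjusted p under 0.05 by edgeR, limma voom and DESeq2, beside 12.0%, 11.5% and 12.2% of all genes. Without WT 2 and WT 3, 1 did by edgeR, beside 13.1% of all genes. This was Cpne8, with a log2 fold change of 0.10 (edgeR adjusted p = 0.821) with them and 0.35 (edgeR adjusted p = 0.205) without them.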

How the data were processed

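RNA of untreated BMDMs was sequenced in 4 WT and 4 Gsdmd-/- libraries made with a TruSeq kit, which does not mark strand. The authors deposited raw read counts per gene, not normalized. The submitters' processing notes name the build mm10. The aligner, counter and annotation are not given in the sources used here. In edgeR 4.0.16 under R 4.3.3, library sizes were normalized with TMM, filterByExpr kept 12911 genes, and genotypes were tested by two-sided quasi-likelihood F tests with Benjamini-Hochberg adjustment over all genes kept. For log2 CPM the prior count was 2. Single values were compared by exact permutation tests. Total counts were 14935114 to 16794810 per library, and the floor of detection was set at 3 counts, for counting error alone. Positions and exon lengths came from GENCODE M21, in which 54495 of the 54532 genes were found.

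The members and the gene lists were chosen with earlier results of these data known. All members, Gsdmd, further annexins and 9 partners were named by rule (Fpr3 beside Fpr2, which it overlaps), as were the 3 genes most like each member. The rule also took list genes past the adjusted test in the main edgeR fit. Among those with an unadjusted p under 0.05 there, it took the 3 with the largest change. Atp8b4, Axl, Mertk, Itgav, Cav1 and Cpne8 were named outside this rule, from other fits and after their values were seen. Further genes called in those fits are not named. The alternatives were limma voom (limma 3.58.1), DESeq2 1.42.0, RLE and upper-quartile scaling, other filters, a replicate block and libraries left out. No pairing of the libraries by replicate number was seen, as described with the alternatives.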

Additional observations from a re-analysis of the deposited data

Results flagged for a closer look

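In 6 of 80 groups of 4 libraries, 1 library lay far from the other 3 relative to the range of the group, and chance gives this in about 1 of 20 groups. None of the 8 annexins was among them, but the rule looks for 1 library apart and can miss WT 2 and WT 3 where both moved together. In WT, S100a4 was at 1.77 CPM in WT 3 and at 2.68 to 2.86 CPM in the others. Pdcd6 was at 97.1 CPM in WT 4 and at 81.1 to 83.5 CPM in the other WT libraries. Ehd1 was at 142 CPM in WT 4 and at 103 to 107 CPM in the others. The pseudogene Gm2260, which shares sequence with Anxa11, was at 17.7 CPM in WT 2 and at 0.913 to 1.34 CPM in the others. The stromal markers summed to 5.14 CPM in Gsdmd-/- 3 and to 3.43 to 3.58 CPM in the other Gsdmd-/- libraries. The erythroid markers summed to 0.305 CPM in WT 3 and to 0.365 to 0.367 CPM in the other WT libraries.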

How the results depend on the processing

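No annexin passed the adjusted test or the unadjusted rule (p under 0.05 and a log2 fold change of 0.5 or more in size) in any of 16 alternatives. The log2 fold changes of Anxa4, Anxa5, Anxa6, Anxa7 and Anxa11 kept their direction in all 16, Anxa1 in 15, and Anxa2 and Anxa3 in 13 each. Anxa1 turned to -0.031 without WT 2 and WT 3, Anxa2 to -0.047 without WT 2, -0.02 without Gsdmd-/- 3 and -0.11 without WT 2 and WT 3, and Anxa3 to 0.01 without WT 2, 0.063 without WT 3 and 0.19 without both. When 1 library was left out, Anxa1 ranged from 0.12 to 0.40, Anxa2 from -0.047 to 0.13, Anxa3 from -0.12 to 0.063, Anxa4 from 0.033 to 0.098, Anxa5 from 0.19 to 0.37, Anxa6 from 0.092 to 0.14, Anxa7 from 0.13 to 0.29 and Anxa11 from -0.19 to -0.038. Without WT 4, Anxa1 (0.40), Anxa5 (0.37) and Anxa7 (0.29) all had an unadjusted p under 0.05, as did 20.5% of all genes in that fit, with edgeR adjusted p = 0.137, 0.0920 and 0.137. Anxa4 was lowest without Gsdmd-/- 3, and Anxa11 lay at -0.038 without Gsdmd-/- 1 and -0.19 without Gsdmd-/- 4. Anxa5 had an unadjusted p under 0.05 in 7 of 16. Gsdmd lay between -2.39 and -2.08 and passed in all. Over all genes, the 18 higher and 27 lower calls became 105 and 187 with DESeq2, 44 and 65 with no filter, 53 and 108 without WT 2 and WT 3, and 8 to 28 and 5 to 56 when 1 library was left out. The 199 higher and 424 lower genes of the unadjusted rule became 421 and 783 with no filter, 405 and 418 without WT 2 and WT 3, 59 and 140 where a log2 fold change of 1 or more was required, 239 and 320 with limma voom, and 155 to 318 and 297 to 704 when 1 library was left out. The cause was not tested. With a replicate block the calls were 9 and 16. Deviations of libraries of the same number correlated at 0.0268, 0.182, 0.0412 and -0.201, so that no pairing by number was seen. Because WT 2 and WT 3 stood apart within the WT, this check could miss a weaker pairing.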

Other observations

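Of the other marker lists, the epithelial list also moved with WT 2 and WT 3, mostly from Cdh1. It summed to 10.3 and 8.24 CPM there, to 23.9 and 20.1 CPM in WT 1 and WT 4, and to 11.3 to 15.3 CPM in Gsdmd-/- libraries. The stromal list summed to 3.29 to 6.88 CPM in WT, with Lum at 0. The lymphoid list stayed at or under 0.49 CPM, with Cd3d, Ncr1 and Gzma at 0, and the erythroid list at or under 0.37 CPM, with Hbb-bs and Hba-a1 at 0.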
